A study of Mus musculus with 6 samples.

Results

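Phox2a, Hand2, Gata2, Gata3, Isl1, Insm1, Mycn and Tbx2 are transcription factors of the noradrenergic neuroblastoma cell. They were taken by gene name from a table of FPKM values (fragments per kilobase of gene, scaled to library depth), where 8 of 54532 listed genes carried these names. The N2a line (Neuro2A) was derived from a mouse neuroblastoma. Its cells were transfected with a control siRNA (si-NC, 3 libraries) or with an siRNA against circRtn4 (si-circRtn4, 3 libraries), and RNA was sequenced to find genes that differ after the knockdown. circRtn4 is a circular RNA made from exons of Rtn4. Its own level cannot be read from a table of whole genes, so the knockdown was not checked here. The labels give C57BL/6 as the strain and growth medium with serum for all 6 libraries. The methods of the study describe retinoic acid treatment after transfection for N2a cells in general, so it is not given which state these cells were in. The 3 libraries of a group come from 1 cell line, and the labels do not say whether they were separate cultures, so the p-values measure the spread between these libraries, which may be technical.

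Neuroblastoma arises from the sympathoadrenal branch of the neural crest, which forms sympathetic neurons and the chromaffin cells of the adrenal gland. In this lineage, the paired-like homeodomain factor Phox2a, the bHLH factor Hand2, the zinc finger factors Gata2 and Gata3 and the LIM homeodomain factor Isl1 switch on the genes for noradrenaline synthesis. In neuroblastoma cells they bind each other's enhancers and form a core circuit that keeps the cells noradrenergic, together with Tbx2, a T-box repressor. Insm1 is a zinc finger factor of neuroendocrine progenitors, and Mycn is the bHLH oncoprotein of high-risk neuroblastoma.

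All 8 factors were expressed in N2a cells, with 408 to 8436 reads per gene and library behind the values. In the si-circRtn4 libraries, Phox2a was at 69.3% and Gata2 at 73.7% of the si-NC level, whereas Tbx2 was at 152%, and these changes passed the test. Of the 6 fits that left out 1 library, Phox2a passed in 2, Gata2 in 3 and Tbx2 in 1. Mycn was at 157%, with no overlap between the groups, but missed the threshold (adjusted p = 0.0527 in limma). It passed once the replicate number was a block (adjusted p = 0.00680 in limma) and in 4 other settings. The block called 19.0% of all genes tested, against 9.19% without it. Mycn did not pass with all detected genes tested (adjusted p = 0.156 in limma) and passed in 0 of the 6 fits that left out 1 library. Hand2, Insm1, Isl1 and Gata3 overlapped between the groups and passed in none of the settings tried.

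The sequences of the small RNAs that bear on this comparison are given first. The study describes circRtn4 as a sponge for miR-24-3p, so genes with sites for this miRNA are of interest, and so are sites for the siRNA itself. Capitals mark the seed, bases 2 to 8. The mature miRNA is from RefSeq (GRCm38.p6), and the siRNA guide is the strand complementary to the one that the study lists.
miR-24-3p: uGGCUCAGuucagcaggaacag
si-circRtn4 guide: aAAAGGGUcucaucugaag

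In the longest annotated 3′ UTR (GENCODE M21) of each factor, the 7 bases that pair with the miR-24-3p seed (CTGAGCC) were found in Gata2 alone, 1 time, at bases 549 to 555 of 1538. Among all genes tested with an annotated 3′ UTR, 2091 of 10694 (19.6%) held this site. In Gata2 the site is not followed by A, so it is of 7 bases and not of 8, and it is printed with 10 bases on each side.
Gata2 site: ggtcctcagcCTGAGCCtccttcaccc
The site of the siRNA guide (ACCCTTT), held by 12.5% of all these genes, was found in 0 of the 8 factors, and neither was the site of the other siRNA strand (ATCTGAA), held by 13.2%. A match of letters is a description, and whether this site of Gata2 is used was not tested.

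Phox2a (chromosome 7, 101818313 to 101822726 in GRCm38, plus strand) had 218, 213 and 206 FPKM with si-NC and 129, 147 and 166 FPKM with si-circRtn4. The highest si-circRtn4 library was below the lowest si-NC library. The means were 212 ± 6.19 and 147 ± 18.8 FPKM (SD, n = 3 each), and the log2 difference was -0.53 with a standard error of 0.10 (adjusted p = 0.0210, limma with Benjamini-Hochberg adjustment over 12749 genes). All log2 differences are si-circRtn4 minus si-NC on the log2(FPKM + 1) scale, where a gene was tested if its mean was at least 1 FPKM, and a gene was called at an adjusted p under 0.05. In bulk RNA, fewer cells with the transcript and less transcript per cell cannot be told apart. Libraries with the same replicate number differed by -0.76, -0.53 and -0.31 log2 units, so the size of the fall varied between the pairs. The call was lost in 4 of the 6 fits that left out 1 library (si-NC replicate 1, 2 or 3, with an adjusted p of 0.0563, 0.0765 and 0.0573, or si-circRtn4 replicate 2, with 0.0722), and with all detected genes tested (adjusted p = 0.0769). The log2 difference stayed between -0.62 and -0.44 over the 13 alternatives.

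Gata2 (chromosome 6, 88193891 to 88207032, plus strand) had 30.2, 29.8 and 28.6 FPKM with si-NC and 20.8, 21.2 and 23.2 FPKM with si-circRtn4. The libraries of each group lay close together and the groups did not overlap. The means were 29.5 ± 0.853 and 21.8 ± 1.29 FPKM (SD, n = 3 each), with a log2 difference of -0.42 (standard error 0.072, adjusted p = 0.0144 from limma). Over the alternatives the log2 difference lay between -0.47 and -0.34. The call was lost without si-NC replicate 2 (adjusted p = 0.0667 in limma), si-circRtn4 replicate 1 (0.0503) or si-circRtn4 replicate 2 (0.0571).

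Tbx2 (chromosome 11, 85832551 to 85841948, plus strand) had 22.2, 16.0 and 16.7 FPKM with si-NC and 26.0, 27.7 and 29.9 FPKM with si-circRtn4. All si-circRtn4 libraries were above all si-NC libraries, with si-NC replicate 1 the nearest to them. The means were 18.3 ± 3.39 and 27.9 ± 1.98 FPKM (SD, n = 3 each), a log2 difference of 0.59 (standard error 0.13, adjusted p = 0.0298 from limma). Without si-NC replicate 1 the log2 difference was 0.73 (adjusted p = 0.00998 in limma), and this was the only fit without 1 library that kept the call, as the other 5 gave an adjusted p of 0.0664 to 0.0982. The adjusted p was 0.0981 with all detected genes tested.

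Mycn (chromosome 12, 12936093 to 12941914, minus strand) had 12.6, 13.5 and 15.9 FPKM with si-NC and 18.5, 19.9 and 27.6 FPKM with si-circRtn4. The groups did not overlap, and si-circRtn4 replicate 3 was well above the other two libraries of its group. The means were 14 ± 1.74 and 22 ± 4.89 FPKM (SD, n = 3 each), and the log2 difference of 0.60 (standard error 0.15, 95% confidence interval 0.24 to 0.96) had an adjusted p of 0.0527 in limma. Libraries of the same number differed by 0.52, 0.53 and 0.75 log2 units. With replicate number as a block in limma, the standard error was 0.069 and the adjusted p was 0.00680. Mycn also passed as TPM (adjusted p = 0.0277), as TPM without Gm23935 (0.0328), after quantile normalization (0.0440) and in limma-voom on reads recovered from FPKM (0.00876). In the fits that left out 1 library the log2 difference lay between 0.43 and 0.71 and passed in 0 of 6 (adjusted p = 0.0639 to 0.145 in limma), although the unadjusted p was at most 0.0188 in every fit.

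**Figure D1:**
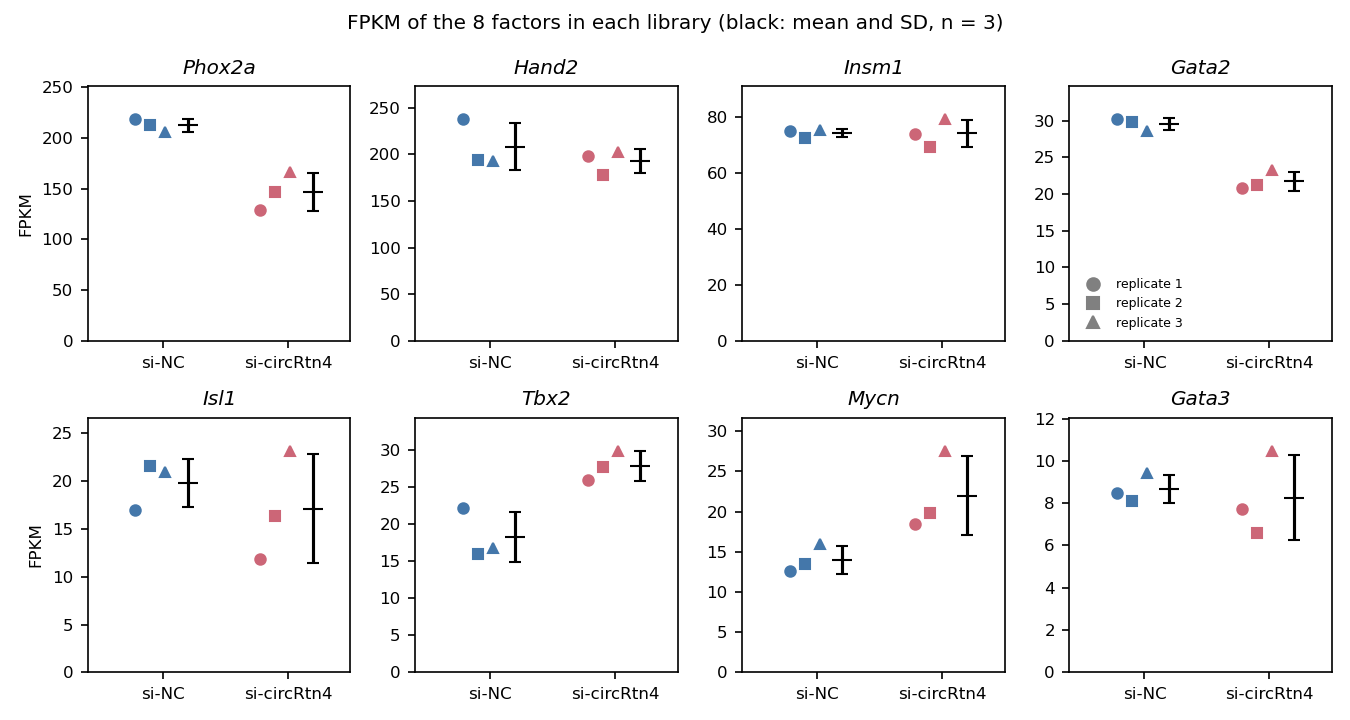
Level of each of the 8 factors in FPKM (vertical axes from 0) in the si-NC (blue) and si-circRtn4 (red) libraries, with a marker shape for each replicate number and the mean and SD of 3 libraries in black. The groups do not overlap for Phox2a, Gata2, Tbx2 and Mycn, whereas they overlap for Hand2, Insm1, Isl1 and Gata3.

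Hand2 (chromosome 8, 57320983 to 57324633, plus strand) had 238, 195 and 193 FPKM with si-NC and 198, 178 and 203 FPKM with si-circRtn4. The groups overlapped, and si-NC replicate 1 was the highest library. The log2 difference was -0.10 (95% confidence interval -0.35 to 0.14, adjusted p = 0.593 in limma). Hand2 is transcribed next to Hand2os1, a noncoding gene on the opposite strand that shares 19.6% of the exon bases of Hand2 and was itself at 5.83 to 10.4 FPKM. It is not given whether the authors counted by strand, so reads in the shared bases cannot be told apart.

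Insm1 (chromosome 2, 146221921 to 146225020, plus strand) had the log2 difference nearest to 0 of the 8 factors. Its values were 74.9, 72.6 and 75.4 FPKM with si-NC and 73.9, 69.4 and 79.2 FPKM with si-circRtn4, so that the si-NC values lay inside the range of the others. The log2 difference was -0.0039, and its 95% confidence interval of -0.18 to 0.17 was the narrowest beside that of Gata2.

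Isl1 (chromosome 13, 116298281 to 116309689, minus strand) had 16.9, 21.6 and 20.95 FPKM with si-NC and 11.9, 16.3 and 23.2 FPKM with si-circRtn4. The si-circRtn4 libraries spanned the whole si-NC range, with a coefficient of variation of 33.3% against 12.7%. The log2 difference of -0.24 had a 95% confidence interval of -0.74 to 0.26, which holds changes as large as that of Phox2a. Its size rested on single si-circRtn4 libraries in both directions, as the log2 difference was -0.47 without replicate 3 (adjusted p = 0.145 in limma) and -0.018 without replicate 1 (adjusted p = 0.965).

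Gata3 (chromosome 2, 9857078 to 9890034, minus strand) had the lowest level of the 8 factors, with 8.46, 8.12 and 9.41 FPKM with si-NC and 7.70, 6.59 and 10.5 FPKM with si-circRtn4. The si-circRtn4 libraries lay on both sides of the si-NC libraries. The log2 difference was -0.082 (95% confidence interval -0.43 to 0.26, adjusted p = 0.780 in limma), and the log2 difference of its paralogue Gata2 lies just within this interval. The ratio of Gata2 to Gata3 within a library was 3.57, 3.67 and 3.03 in si-NC and 2.70, 3.22 and 2.22 in si-circRtn4, and these ranges overlapped (two-sided exact permutation test, p = 0.2).

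By these tests 2 of the 8 factors were lower and 1 was higher. Across the 12749 genes tested, 4.82% were called lower and 4.36% higher, or 9.19% in either direction. With replicate number as a block, 2 factors were lower and 2 higher (Tbx2 and Mycn), against 9.75% and 9.29% of all genes, or 19.0% in either direction. In 4 of the 8 factors the groups did not overlap, against 31.7% of all genes tested. For these 4 genes the two-sided exact permutation test gave p = 0.1, the smallest value that 3 libraries against 3 can reach. The median log2 difference of the 8 factors was -0.093, beside 0.0020 for all genes tested. The list is short and was not uniform, since it held genes among the lowest 3.64% (Phox2a) and the lowest 6.08% (Gata2) of all log2 differences and genes above 97.4% (Mycn) and 97.3% (Tbx2) of them.

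**Figure D2:**
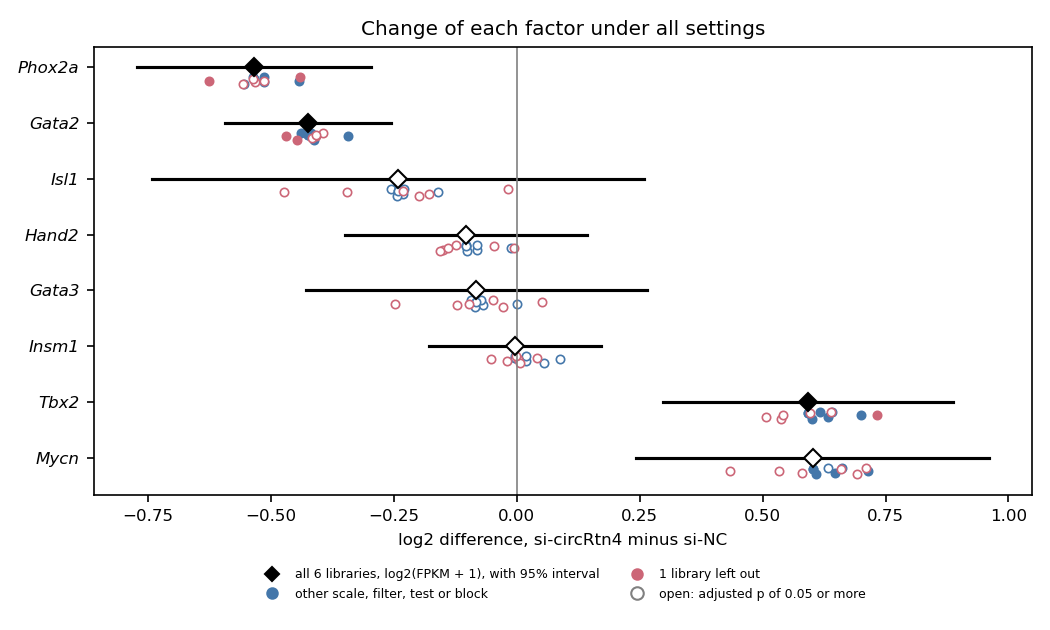
Log2 difference of each factor (horizontal axis, si-circRtn4 minus si-NC), with the fit of all 6 libraries on the log2(FPKM + 1) scale and its 95% confidence interval in black, other scales, filters, tests and the block in blue, and fits without 1 library in red. Filled markers have an adjusted p under 0.05 in limma. The points of Phox2a, Gata2, Hand2 and Isl1 all lie below 0 and those of Tbx2 and Mycn all above 0, whereas those of Insm1 and Gata3 lie on both sides. The 95% confidence intervals of Hand2 and Isl1 hold 0.

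The libraries held 13541198 to 15122063 reads on genes, and their pairwise correlations were 0.980 to 0.986 within groups and 0.967 to 0.977 between groups. Reads of mitochondrial protein-coding genes made up 2.03% to 2.26% in si-NC and 1.495% to 1.87% in si-circRtn4, and Gm23935, a short gene annotated as a miRNA, held 20.1% to 20.7% and 13.5% to 18.8% of the FPKM sum. Both shares moved with the groups, and the part of the mitochondrial share in the results was not tested. With Gm23935 left out and each library rescaled to the same sum, Phox2a was lower by a log2 difference of -0.51 (adjusted p = 0.0132 in limma), Gata2 by -0.41 (0.0148), and Tbx2 was higher by 0.63 (0.0231).

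Ratios of 2 factors within a library do not depend on how libraries are scaled to each other. They were not among the planned tests. Insm1 was the factor with the smallest change, and the factors divided by it were those whose groups did not overlap. Apart from the scaling, these ratios therefore repeat the results of the single factors. Tbx2 over Gata2 sets a factor called higher over a factor called lower. Phox2a divided by Insm1 was 2.91, 2.93 and 2.73 in si-NC and 1.74, 2.11 and 2.10 in si-circRtn4. Gata2 divided by Insm1 was 0.403, 0.411 and 0.379 in si-NC and 0.282, 0.306 and 0.293 in si-circRtn4. For both ratios every si-circRtn4 library was below every si-NC library. Tbx2 divided by Insm1 went from a mean of 0.246 ± 0.0434 to 0.376 ± 0.0234 (SD, n = 3 each) without overlap, and Mycn divided by Insm1 went from 0.188 ± 0.0219 to 0.295 ± 0.0493 without overlap. The order of a pair of factors in FPKM turned round. This order rests on the deposited gene lengths (3626 bases for Tbx2 and 5398 bases for Gata2), and the transcripts made in these cells were not tested. Tbx2 divided by Gata2 was 0.735, 0.536 and 0.586 in si-NC and 1.25, 1.30 and 1.29 in si-circRtn4, so that Tbx2 was below Gata2 in each control library and above it in each knockdown library. Of 8 ratios computed, each of these had p = 0.1 in the two-sided exact permutation test, the smallest value possible.

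**Figure D3:**
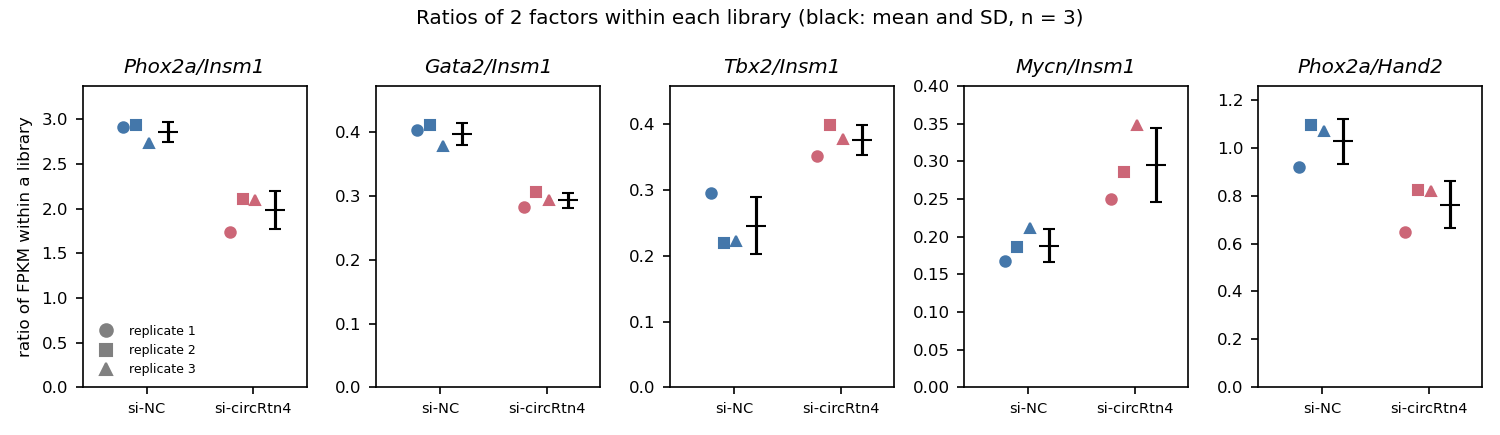
Ratio of the FPKM of 2 factors within each library (vertical axes from 0), for Phox2a, Gata2, Tbx2 and Mycn over Insm1 and for Phox2a over Hand2, with the mean and SD of 3 libraries in black. In each panel the si-NC (blue) and si-circRtn4 (red) libraries do not overlap.

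FPKM is a level per gene length, so the factors can also be ordered within a group. The order rests on the deposited gene lengths, and whether the cells make shorter transcripts of a factor was not tested. In si-NC the order of the mean levels was Phox2a, Hand2, Insm1, Gata2, Isl1, Tbx2, Mycn and Gata3, from 212 to 8.67 FPKM. The values of Phox2a and Hand2 overlapped, and so did those of Isl1 and Tbx2, whereas the other neighbours did not. In si-circRtn4 the order was Hand2, Phox2a, Insm1, Tbx2, Mycn, Gata2, Isl1 and Gata3. Hand2 was then above Phox2a without overlap, with a ratio of Phox2a to Hand2 of 0.648, 0.821 and 0.818 against 0.918, 1.09 and 1.07 in si-NC. The values of Tbx2 overlapped those of Mycn, those of Mycn overlapped Gata2, and those of Gata2 overlapped Isl1. Gata3 was the lowest factor in both groups.

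Upstream sequence is shown for the factors whose groups did not overlap, as far as a RefSeq promoter was at hand (GRCm38.p6). These are the 100 bases before the annotated start of Phox2a (chr7:101818213-101818312, plus strand), of both annotated starts of Gata2 (chr6:88193791-88193890 and chr6:88198564-88198663, plus strand) and of Mycn (chr12:12941837-12941936, minus strand). The RefSeq start of Mycn and the second start of Gata2 lie inside these genes as the deposited table places them, so most of the Mycn stretch and all of the second Gata2 stretch are within the deposited gene. The sequences of Phox2a and both of Gata2 were rich in G and C (80%, 69% and 76%), and that of Mycn held 61%.
Phox2a: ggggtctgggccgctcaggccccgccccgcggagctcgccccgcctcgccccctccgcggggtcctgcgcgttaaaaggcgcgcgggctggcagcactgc
Gata2, first start: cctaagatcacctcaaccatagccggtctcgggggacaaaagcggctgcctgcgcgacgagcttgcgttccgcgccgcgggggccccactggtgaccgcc
Gata2, second start: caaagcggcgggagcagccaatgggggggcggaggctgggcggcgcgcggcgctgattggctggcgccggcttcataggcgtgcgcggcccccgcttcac
Mycn: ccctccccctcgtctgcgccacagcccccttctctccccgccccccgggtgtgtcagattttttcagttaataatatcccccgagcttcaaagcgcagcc

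Letters that members of the circuit are known to bind were searched on both strands of the 250 bases before each start. These were the E-box of Myc and Max (CACGTG), the wider bHLH E-box (CANNTG), GATA letters (AGATAA and TGATAA) and homeodomain letters (TAATTA). Of all 32851 promoters of this length, they were held by 6.02%, 66.2%, 9.99%, 7.94% and 4.84%. The windows of Phox2a, Gata2 (both starts) and Gata3 held none of them, and the Gata3 window lies before an internal start, well inside the deposited gene. Mycn and Isl1 held 1 CANNTG each, and Isl1 held 1 TGATAA. Hand2 held 2 CANNTG, and it was the one window with GATA and homeodomain letters together, where TAATTA shares its last bases with AGATAA on the other strand. The stretches of Hand2 (chr8:57320758-57320827, plus strand) and Isl1 (chr13:116309779-116309818, minus strand) are shown with the GATA and homeodomain letters in capitals.
Hand2: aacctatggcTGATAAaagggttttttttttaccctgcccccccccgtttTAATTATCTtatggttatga
Isl1: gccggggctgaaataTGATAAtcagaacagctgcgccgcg
The promoters of Insm1 and Tbx2 were not analysed here. The circuit is described at distant enhancers, which lie outside these windows.

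Other factors of the adrenergic state were described from a list of 22 genes, of which 12 were tested, 2 were called higher and 1 lower, with a median log2 difference of 0.012. For this and the later lists, the shares among all genes tested were 4.36% higher and 4.82% lower. With the replicate block they were 9.29% and 9.75%. Hey1, a target of Notch signalling, rose to 5.21 ± 0.527 FPKM from 3.45 ± 0.0183 FPKM (SD, n = 3 each), with a log2 difference of 0.48 (adjusted p = 0.0202 in limma). Sox4 rose from 54.5 ± 3.53 to 72.0 ± 5.45 FPKM (log2 difference 0.39, adjusted p = 0.0320), and Pbx3, a TALE homeodomain partner of other homeodomain factors, fell from 12.3 ± 0.742 to 9.01 ± 1.24 FPKM (log2 difference -0.41, adjusted p = 0.0468). In the fits without si-NC replicate 2 or 3 or without si-circRtn4 replicate 1 or 2, or with all detected genes tested, 0 genes of this list were called in either direction. Without si-NC replicate 1 and as TPM, 0 were called lower, so the call of Pbx3 was lost there too. Without si-circRtn4 replicate 3, 1 was called higher.

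Of 24 paralogues of the 8 factors, 8 were tested and 16 were under the limit of 1 FPKM. Tbx20, another T-box gene, was the one called, and it fell from 9.31 ± 0.394 to 5.66 ± 0.741 FPKM (SD, n = 3 each, log2 difference -0.64, adjusted p = 0.01005 in limma), opposite to Tbx2. Myc, the relative of Mycn, was at 101.5 ± 7.77 FPKM in si-NC and 105 ± 4.08 FPKM in si-circRtn4, several times the level of Mycn, with a log2 difference of 0.051 (adjusted p = 0.751). Max, the partner of both proteins, was at 25.8 ± 0.266 and 26.2 ± 0.775 FPKM.

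In the network of Myc, Max and their antagonists, 10 of 12 genes were tested, with 1 called lower and 1 higher. Mxi1, an antagonist that competes for Max, fell from 11.9 ± 0.662 to 9.18 ± 0.666 FPKM (log2 difference -0.35, adjusted p = 0.0393 in limma), and Mlxip, a partner of Mlx in glucose sensing, rose from 6.80 ± 0.263 to 8.63 ± 0.0901 FPKM (0.30, adjusted p = 0.0347). Both calls were lost in each of the 6 fits that left out 1 library and with all detected genes tested, and the call of Mxi1 also as TPM with or without Gm23935. Among 20 textbook target genes of Myc proteins, 19 were tested, and limma called 0, with 0 at an unadjusted p under 0.05 and 0 in limma-voom. Their median log2 difference was 0.075, beside 0.0020 for all genes tested. With replicate number as a block, 1 was called lower. Of 8 genes for the turnover of the Mycn protein, such as the kinase Aurka and the ubiquitin ligase subunit Fbxw7, limma called 0, with 1 higher and 2 lower at an unadjusted p under 0.05 and 0 in limma-voom, whereas the block called 1 in each direction.

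The partner proteins of these factors include the LIM-only and Ldb proteins that bridge Gata, bHLH and LIM factors, the Friend of GATA proteins and the corepressor that Insm1 recruits. Of 20 such genes, 16 were tested, and 1 was called. Ssbp2, which stabilises Ldb complexes, fell from 10.9 ± 0.325 to 7.86 ± 0.400 FPKM (SD, n = 3 each, log2 difference -0.43, adjusted p = 0.0135 in limma), a call that was lost without si-NC replicate 2 or si-circRtn4 replicate 2. With replicate number as a block, 3 were called higher and 2 lower, against 9.29% and 9.75% of all genes tested. Lmo1, a neuroblastoma susceptibility gene in humans, was at 90.4 ± 11.2 and 89.2 ± 5.18 FPKM. Of 14 genes of the BMP pathway, which induces Phox2a and Hand2 in the embryo, 8 were tested and limma called 0, with 1 higher and 1 lower at an unadjusted p under 0.05, and with 1 called lower in limma-voom and 1 with the block. The ligands Bmp2, Bmp4 and Bmp7 and the antagonist Nog were listed at 0 in all libraries, and whether these genes were silent was not tested.

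The effector genes of the lineage, such as those for catecholamine synthesis, vesicle transport and granule proteins, were the list with the largest changes. Of 19 genes, 12 were tested, of which 6 were called lower and 0 higher, with 2 higher at an unadjusted p under 0.05 and 1 in limma-voom, and the median log2 difference was -0.63. With replicate number as a block, 7 were called lower and 2 higher, against 9.75% and 9.29% of all genes tested. Dbh, the enzyme that makes noradrenaline, fell by 2.07 on the log2 scale, and the log2 differences were -1.86 for the granule protein Chgb, -1.57 for Chga and -1.19 for Slc18a2, the vesicular monoamine transporter. These changes were larger than those of Phox2a and Gata2. Of the lower genes, Th, the rate-limiting enzyme of the same synthesis, was at 2.54 ± 0.370 and 0.712 ± 0.131 FPKM (SD, n = 3 each). Ddc was above 0 in every library but under the limit of 1 FPKM (0.511 ± 0.079 FPKM in si-NC and 0.431 ± 0.055 FPKM in si-circRtn4). Slc6a2, the noradrenaline transporter, was listed at 0 in all libraries. Whether a listed 0 means that the gene was silent was not tested.

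Neuroblastoma cells can also take a mesenchymal state, which has factors of its own. Of 29 such factors, 15 were tested, 3 were called higher and 2 lower, with a median log2 difference of 0.11. Wwtr1 (TAZ, a coactivator of Hippo signalling) rose from 1.94 ± 0.347 to 4.597 ± 0.914 FPKM (log2 difference 0.92, adjusted p = 0.0117 in limma) and Id1 from 12.1 ± 2.24 to 20.4 ± 2.12 FPKM (0.72, adjusted p = 0.0193). Irf1, an interferon response factor, fell from 8.965 ± 1.73 to 5.63 ± 0.736 FPKM (-0.58, adjusted p = 0.0416), and Smad3 rose from 4.84 ± 0.914 to 7.17 ± 0.504 FPKM (0.50, adjusted p = 0.0459). With all detected genes tested, 0 of this list were called in either direction. In the fits without 1 library, 1 to 3 were higher, with 1 without si-NC replicate 2 or without si-circRtn4 replicate 2, and 0 were lower except for 1 without si-circRtn4 replicate 3. As TPM, 3 were higher and 0 lower, and as TPM without Gm23935, 3 were higher and 1 lower. The other 14 factors were under the limit of 1 FPKM, of which 4 (Prrx1, Twist2, Tbx18 and Meox2) were listed at 0 in all libraries.

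**Figure D4:**
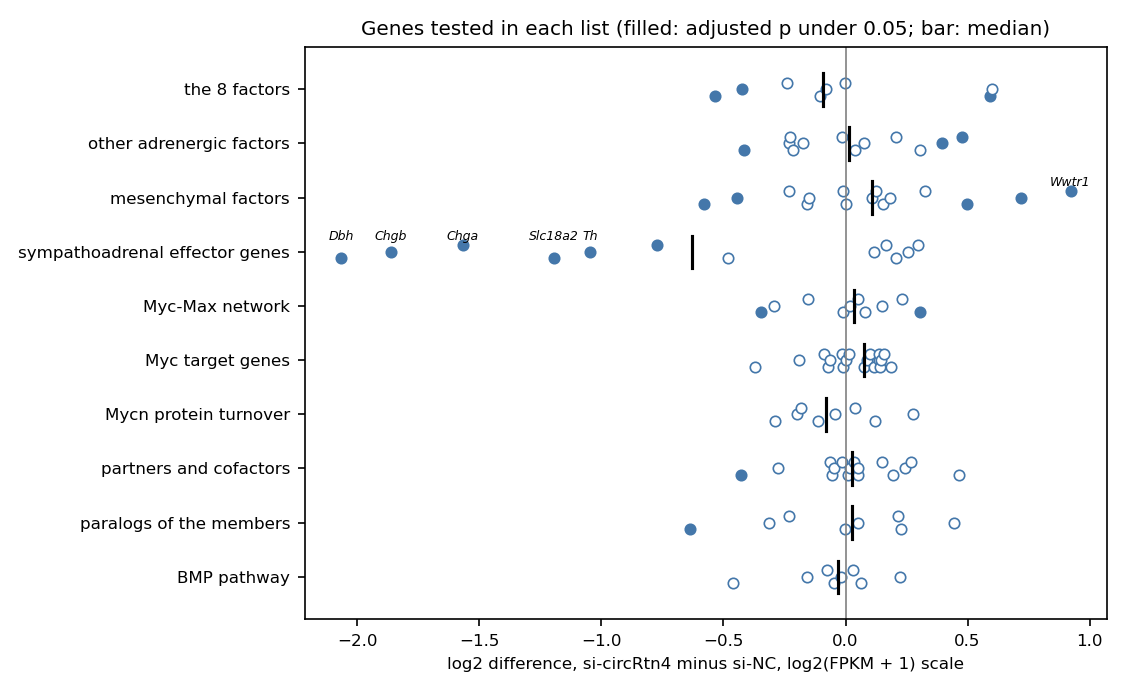
Log2 difference (horizontal axis, si-circRtn4 minus si-NC, log2(FPKM + 1) scale) of the genes tested among the 8 factors and in 9 gene lists, with filled points for an adjusted p under 0.05 and a bar at the median of each list. The effector genes reach from -2.07 to 0.30 with a median of -0.63, whereas the medians of the other lists and of the 8 factors lie between -0.093 and 0.11.

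Markers of other cells were summed to see whether they moved with the groups. The 9 neuronal markers together reached 611 to 795 FPKM in si-NC and 454 to 732 FPKM in si-circRtn4, which overlapped, with Nefl listed at 0. Most of this sum was Tubb3 (538 ± 85.0 FPKM in si-NC). Of 7 neuronal markers tested, 1 was called higher and 1 lower, or 1 higher and 2 lower with the block. Syt1, the calcium sensor of synaptic vesicles, fell from 25.2 ± 0.675 to 13.8 ± 2.33 FPKM (log2 difference -0.84, adjusted p = 0.00673 in limma), and Elavl4, a neuronal RNA-binding protein, rose from 13.6 ± 2.79 to 24.3 ± 3.64 FPKM (0.80, adjusted p = 0.0252). The 9 Schwann or glial markers reached 3.31 to 4.41 and 3.11 to 3.67 FPKM, with Foxd3, Fabp7 and Cdh19 listed at 0. The sum of the 5 motor or cholinergic neuron markers went without overlap from 0.359 to 0.888 FPKM down to 0.19 to 0.289 FPKM. All 5 were under the limit of 1 FPKM, with Slc18a3 listed at 0. The sum of the 8 fibroblast markers went without overlap from 1.77 to 3.27 FPKM up to 4.59 to 6.97 FPKM. Pdgfrb alone made up most of this (2.05 ± 0.690 to 4.77 ± 1.22 FPKM, log2 difference 0.92, adjusted p = 0.0316 in limma), whereas Col1a1, Col1a2 and Col3a1 were at 0.153 FPKM on average at most and Postn was listed at 0. The 6 markers of cortical excitatory neurons went from 2.61 to 2.87 FPKM up to 3.28 to 3.57 FPKM, and Neurod6, Emx1 and Bcl11b were listed at 0. The part of the neuronal, motor neuron, fibroblast and cortical markers in the results of the 8 factors was not tested.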

How the data were processed

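The members and the gene lists were chosen with earlier results of these data known. Gene-level FPKM were made and deposited by the authors, next to the length and position of each gene. The aligner and counting tool behind them are not given in the sources used here beyond the processing notes of the submitters, which name Bowtie 0.12.2 and the builds mm8 and mm9 without a role. The deposited start and end were the same as in GENCODE M21 (GRCm38) for 98.1% of the genes, so coordinates are those of GRCm38. A further 6 columns belong to no sample of the series and were left aside.

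In each library all values, once multiplied by length, were whole numbers of reads within 0.01 after division by a common step, which gave reads for limma-voom and depth. The deposited FPKM were put on the log2(FPKM + 1) scale. Tests used limma 3.58.1 (R 4.3.3, eBayes with a trend) on 12749 genes whose mean reached 1 FPKM, with Benjamini-Hochberg adjustment. All 8 members passed this filter. The fit was run on simulated data before use, and the outcome is not used here. Those data held changes larger than those of the 8 members and no deviations shared by libraries with the same replicate number. Exact permutation tests, motifs and plots were made in Python 3.11.15. Genes named from a list were the 4 called genes with the largest change at most, and Myc, Max, Lmo1, Aurka, Fbxw7, Th, Ddc, Tubb3 and Pdgfrb and the genes listed at 0 were added after their values had been seen. Alternatives were a pseudocount of 0.1, all detected genes, TPM, TPM without Gm23935, quantile normalization, limma-voom, replicate number as a block and leaving out each library in turn.

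Groups share replicate numbers 1 to 3. Same-numbered libraries shared deviations from their group means, with correlations of 0.331, 0.190 and 0.226, against 0.00913 at most for other pairs of libraries. Deviations within a group sum to 0, so positive values for same-numbered pairs push the others down, and the contrast is partly built in. The numbers were treated as pairs in the block, although the labels do not say what a number stands for. Some genes of the lists and of the nearest profiles are not reported here.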

Additional observations from a re-analysis of the deposited data

How the results depend on the processing

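Of the 8 factors, 2 were called lower with a pseudocount of 0.1, as TPM with or without Gm23935, after quantile normalization, in limma-voom and with the replicate block, 1 with all detected genes tested, and 0 to 2 when 1 library was left out. The number called higher was 2 as TPM, as TPM without Gm23935, after quantile normalization, in limma-voom and with the replicate block (Tbx2 and Mycn), 0 with all detected genes tested, and 0 to 1 when 1 library was left out. The replicate block changed no other call of the 8 factors. Across all genes, 210 were higher and 261 lower with all detected genes tested, 972 and 393 as TPM (71.2% of calls higher, against 47.5%), 1185 and 1243 with the replicate block, 902 and 725 in limma-voom, and 157 to 406 higher and 212 to 416 lower when 1 library was left out, with the fewest without si-NC replicate 2. Directions changed only near 0. Gata3 had a log2 difference of 0.00026 as TPM, and of -0.25 to 0.051 when 1 library was left out (0.051 without si-circRtn4 replicate 2). For Insm1 it was 0.089 as TPM, 0.018 as TPM without Gm23935, 0.055 after quantile normalization and 0.019 in limma-voom. When 1 library was left out it lay between -0.052 and 0.042, above 0 for si-NC replicate 1 (0.0020), si-NC replicate 3 (0.0068) and si-circRtn4 replicate 2 (0.042). The fits without 1 library hold fewer samples, and those with all detected genes test 28442 genes. The cause of the other changes was not tested.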

Other observations

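Within the si-circRtn4 group, replicate 3 had the highest FPKM of all 3 libraries for 8 of the 8 factors, which was noticed after the values had been seen. Among all genes tested, this library was the highest of its group for 33.4%. As TPM without Gm23935 it was the highest for 7 of the 8 factors and for 23.3% of all genes, the exception being Hand2. In the si-NC group, replicates 1, 2 and 3 were the highest for 4, 1 and 3 of the factors. The factors therefore stood higher in 1 knockdown library than in the other two, in both those that were lower and those that were higher after si-circRtn4.

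Among the genes whose profile over the 6 libraries was nearest to that of Mycn were Galk1 and Gldc, of 10783 protein-coding genes tested, with a root mean square distance of 0.0533 and 0.0635 log2 units after centring each gene on its mean. For Tbx2 they were Fabp3, Blvrb and Tesc (0.0392 to 0.0862), and for Phox2a they were Zfp580, Wbp1 and Pigq (0.0495 to 0.0542). Such profiles rest mostly on the difference between the groups and are shared by many genes.

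Phox2a shares 95 exon bases (4.67% of its own) with Inppl1 on the opposite strand, which was at 24.7 FPKM in si-NC and 20.3 FPKM in si-circRtn4 on average, and Gata3 shares 3.90% with the antisense gene Gm13256, which was at 0.794 FPKM at most.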
